A study of Saccharomyces cerevisiae with 8 samples.

Results

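The comparison described here set Cap-Clip against no enzyme in a 5'-cap sequencing experiment on budding yeast, Saccharomyces cerevisiae. It comprised 4 of the 8 libraries in the study, namely Cap-Clip replicates 1 and 2 and no-enzyme replicates 1 and 2, which were chosen by their labels and not by any measured value. All libraries came from BY4741, a Mat a strain with the alleles his3Δ1, leu2Δ0, ura3Δ0 and met15Δ0, harvested in mid-log phase from a rich medium with glucose. Total RNA of each of 2 replicate cultures was freed of DNA and dephosphorylated with calf intestinal phosphatase. It was then split into aliquots that received Cap-Clip (an acid pyrophosphatase), another decapping enzyme or no enzyme. Every aliquot went on through ligation of a barcoded oligonucleotide to the 5' ends, selection of polyadenylated RNA and sequencing, so the no-enzyme libraries differed from the Cap-Clip libraries only in the missing enzyme, as far as the labels say. One strain and one growth condition were used.

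Messenger RNA made by RNA polymerase II carries a methylated guanosine cap, joined to its first base through a chain of phosphates. Phosphatase cannot remove this cap, whereas a pyrophosphatase cuts within it and leaves a monophosphate that RNA ligase can join. Ends made by cleavage or trimming, by contrast, carry a monophosphate or a hydroxyl group, and the phosphatase step takes the monophosphate away. The comparison therefore asks which counted 5' ends depended on decapping and which were also recovered without it.

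Each counted 5' end is called a tag, and it has a position and a strand in genome build R64 (sacCer3). Cap-Clip libraries held 1268757 and 8475181 tags, against 736236 tags in no enzyme 1 and 80721 in no enzyme 2. Levels are given as CPM, the tags of a position or gene per 1000000 tags of its library, always in the order Cap-Clip 1, Cap-Clip 2, no enzyme 1, no enzyme 2. CPM is a share of a library, so a class that fills more of one library leaves less of it for the others. A count of 0 allows up to 2.36 and 0.354 CPM in the Cap-Clip libraries, against 4.07 CPM in no enzyme 1 and 37.2 CPM in no enzyme 2, where a single tag equals 12.4 CPM. These limits cover counting error only. The no-enzyme libraries stood apart from each other, as the next paragraphs show, and their values are given separately throughout. In the strain's deleted genes LEU2, URA3 and MET17 no tag fell in the 5' region of any of these libraries, and MFA1, which encodes the a-factor pheromone, had 3247 and 3298 CPM with Cap-Clip, against 400.7 CPM in no enzyme 1 and 2837 CPM in no enzyme 2. HIS3 had 180 and 265 CPM with Cap-Clip, against 32.6 CPM in no enzyme 1 and 285 CPM in no enzyme 2.

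The 5' ends that carry the comparison are shown here as windows of 30 bases of the RNA strand, read 5' to 3' from the R64 genome. Capitals mark the base before the 5' end, at -1, and the first base of the tag, at +1. The first set holds transcription start sites, where a pyrimidine at -1 followed by a purine at +1 is the usual initiator of RNA polymerase II. CCW12 (window chr12:370127-370156, minus strand), RPL41B (chr4:221805-221834, minus strand) and TDH3 (chr7:883835-883864, minus strand) have positions among the 5 fullest of each Cap-Clip library. A position of RPL41A, not printed here, was fuller than that of TDH3 in both. RPS18B (chr13:223828-223857, minus strand) and MAP2 (chr2:48636-48665, minus strand) have the positions in 5' regions with the highest fold over no enzyme among called positions at a mean of 20 CPM or more, with 10 or more no-enzyme tags and no overlap between groups, and RPS29B (chr4:341237-341266, minus strand) and GCN4 (chr5:140320-140349, minus strand) have start sites far upstream of the start codon.
CCW12: ctttcctaacatacCAagaaattaatcttc
RPL41B: aatcctaagatagtCAtatcgacttaattc
TDH3: tagttttaaaacacCAagaacttagtttcg
RPS18B: aaaagccaatagagCAgaaagtggtaaaga
MAP2: atcaacaagtactgTAgaagctctaccgta
RPS29B: tgggattagtagttTGagaaattctttgaa
GCN4: atataatagatataCAaaacaaaacaaaac

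The second set holds 5 of the 12 fullest 5' ends inside coding regions in no enzyme 1, chosen after their values and bases were seen. They lie in RPL15A (chr12:202236-202265, minus strand), HCR1 (chr12:539031-539060, minus strand), RPO26 (chr16:911356-911385, plus strand), RPS3 (chr14:303235-303264, plus strand) and KRS1 (chr4:526885-526914, plus strand). The 5 shown have AG at -1 and +1, but of all 12 only 7 have AG at -1 and +1, and the pyrimidine-purine step is at 0 of them.
RPL15A: gtgccgctaacttgAGagtcttgaactcct
HCR1: cgattgatttgattAGagatgtagcaaaac
RPO26: taacgacggtaatgAGaacttcgaagattt
RPS3: gttaagattatgagAGacccagctaagagc
KRS1: accgggtctatgtgAGcgtttcgaggtctt

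The third set holds ends of noncoding RNAs. LSR1 (chr2:681848-681877, minus strand) is the U2 small nuclear RNA, SNR5 (chr15:842388-842417, plus strand) is a small nucleolar RNA with its own promoter, SNR190 (chr10:139937-139966, minus strand) and SNR128 (chr10:139677-139706, minus strand) are neighbours cut from one precursor, and SNR41 (chr16:719228-719257, minus strand) is also cut from a cluster.
LSR1: tttttttaaatcccCAcgaatctctttgcc
SNR5: caggataagaaaacCAtcattcaataaact
SNR190: aaaagaagaattgaTTggccctgatgataa
SNR128: atatataatttatgATcacggtgatgaaag
SNR41: ttctttctgtgtgaCTcccctatgattaaa

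The fourth set comes from the mitochondrial genome, numbered chr17 in the deposited table. The ends lie just before the annotated start of the large ribosomal RNA, 21S_RRNA (chr17:57993-58022, plus strand), upstream of the small ribosomal RNA, 15S_RRNA (chr17:6455-6484, plus strand), and at the start of the valine tRNA gene tV(UAC)Q (chr17:78518-78547, plus strand).
21S_RRNA: attatatatataagTAgtaaaaagtagaat
15S_RRNA: tattattatataagTAataaataatagttt
tV(UAC)Q: gtatatattttataAAggagattagcttaa

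Cap-Clip libraries consisted almost wholly of tags just upstream of coding regions, while no enzyme 1 consisted mostly of tags inside coding regions and no enzyme 2 lay between them. The 5' regions of the 6002 nuclear protein-coding genes, which began 400 nt before the start codon, reached 50 nt inside and were ended at an upstream coding region of the same strand, held 92.4% and 91.1% of the Cap-Clip tags. They held 14.2% of the tags in no enzyme 1 (95% Wilson interval 14.1 to 14.3) and 73.0% in no enzyme 2 (72.7 to 73.3). Gene bodies, the rest of the coding exons, held 4.71% and 5.87% of the Cap-Clip tags, against 78.7% in no enzyme 1 and 23.7% in no enzyme 2. The mean share of 5' regions was thus 48.2 percentage points higher with Cap-Clip and that of bodies 45.9 percentage points lower (-45.9). Both Cap-Clip libraries lay beyond both no-enzyme libraries, with an exact two-sided permutation p of 0.33 for each, the smallest that 2 libraries against 2 can give.

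Of the smaller classes, 5 filled more of both no-enzyme libraries. Noncoding nuclear genes held 0.383% and 0.369% of the Cap-Clip tags, against 2.45% in no enzyme 1 and 0.478% in no enzyme 2. The mitochondrial genome held 0.0385% and 0.0351% with Cap-Clip, against 0.172% in no enzyme 1 and 0.0471% in no enzyme 2. Strands opposite coding regions held 0.256% and 0.310% with Cap-Clip, against 1.04% in no enzyme 1 and 0.483% in no enzyme 2. The stretch of 200 nt after stop codons held 0.173% and 0.235% with Cap-Clip, against 1.65% in no enzyme 1 and 0.572% in no enzyme 2. Introns held 0.205% and 0.177% with Cap-Clip, against 0.351% in no enzyme 1 and 0.242% in no enzyme 2. In each of these classes both Cap-Clip libraries were below both no-enzyme libraries, again at the smallest exact p of 0.33. Positions outside all classes went the other way, with 1.81% and 1.93% of tags with Cap-Clip, against 1.41% in no enzyme 1 and 1.51% in no enzyme 2.

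**Figure D1:**
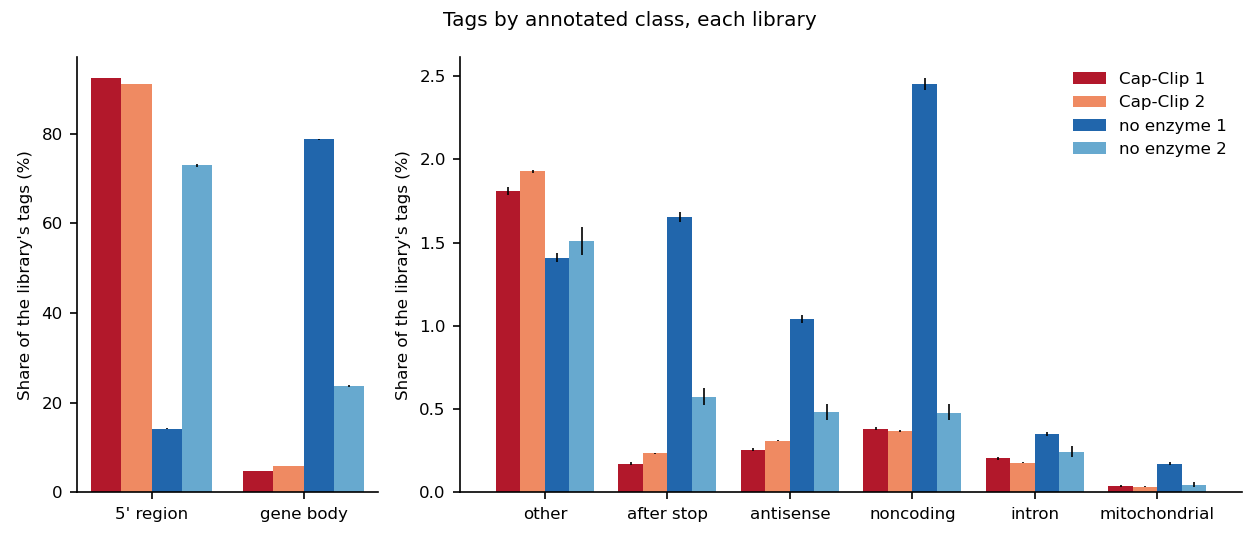
Share of all tags (percent) in each class of position, for the 2 Cap-Clip libraries and each no-enzyme library, with 95% Wilson intervals as lines. The 5' regions fill 92.4% and 91.1% of the Cap-Clip libraries, against 14.2% of no enzyme 1 and 73.0% of no enzyme 2.

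Around start codons, both Cap-Clip libraries and no enzyme 2 had one steep peak shortly upstream, and no enzyme 1 had a flatter one. The median tag of the 5' regions lay 32 and 33 nt upstream of the start codon with Cap-Clip, against 21 nt in no enzyme 1 and 30 nt in no enzyme 2. Of these tags, 1.78% and 2.05% lay within the first 50 nt of the coding region with Cap-Clip, against 23.0% in no enzyme 1 and 3.06% in no enzyme 2. Tags within 50 nt upstream made up 73.7% and 71.4% with Cap-Clip, against 54.7% in no enzyme 1 and 77.1% in no enzyme 2.

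**Figure D2:**
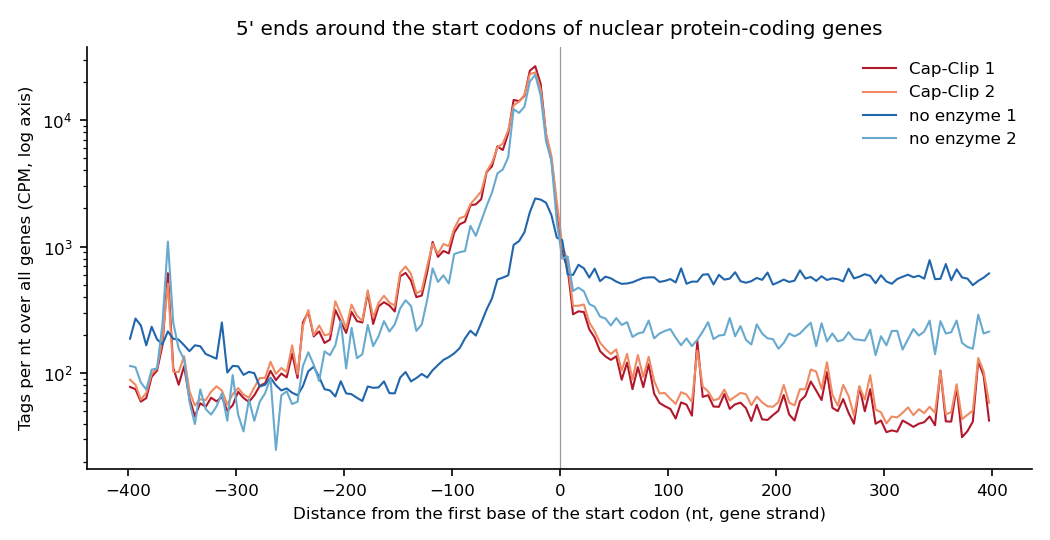
Tags per nt summed over all nuclear protein-coding genes (CPM, log axis, means of 5 nt) by distance from the first base of the start codon, for each of the 4 libraries. The Cap-Clip libraries and no enzyme 2 fall steeply at the start codon, and no enzyme 1 stays high across the coding region, in which bodies hold 78.7% of its tags.

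The strongest position of each gene was compared between libraries, as a description over regions. To compare equal numbers of tags, 20 tags were drawn from each 5' region in each library, which was possible in 369 regions. Every library had to hold 20 tags in the region, so the choice was set mainly by no enzyme 2, the smallest library with 80721 tags. The shares therefore describe regions that were full in no enzyme 2 and not all regions. The fullest position of Cap-Clip 1 lay within 5 nt of that of Cap-Clip 2 in 81.0% of regions (95% Wilson interval 76.7 to 84.7), within 5 nt of that of no enzyme 2 in 77.8% (73.3 to 81.7) and of that of no enzyme 1 in 56.6% (51.5 to 61.6). For Cap-Clip 2 the shares were 78.0% with no enzyme 2 and 53.9% with no enzyme 1. The no-enzyme libraries shared a position with each other in 55.6% of regions.

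The bases at the 5' ends differed in the same order of libraries. In 5' regions, 90.9% and 89.7% of the Cap-Clip tags had the pyrimidine-purine step at -1 and +1, against 45.4% in no enzyme 1 and 82.2% in no enzyme 2. The first base was A in 78.7% and 77.1% of the Cap-Clip tags, against 50.1% in no enzyme 1 and 75.7% in no enzyme 2. In gene bodies the step was rarer in every library, at 35.9% and 34.1% with Cap-Clip, against 21.5% in no enzyme 1 and 21.8% in no enzyme 2. Here the no-enzyme libraries were alike, although they differed in how many tags lay in bodies.

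The 5' regions of 4964 genes passed the filter on low counts and were tested with edgeR's quasi-likelihood test at a Benjamini-Hochberg adjusted p under 0.05. Of these, 3176 were higher with Cap-Clip, which is 64.0% of those tested, and 65 were lower, which is 1.31%. The median log2 fold change was 1.98. The spread was estimated over all 8 libraries, most of them decapped. With the 4 libraries of the comparison alone, 1758 of 4405 tested regions were higher and 46 lower, at a median of 1.89. With TMM 4382 were higher and 25 lower at a median of 3.87, and with DESeq2 4401 and 12 at a median of 3.44. Both scalings shifted all features upwards, the median over the 9600 tested being 0.25 with column totals, 1.96 with TMM and 1.70 with DESeq2. Both Cap-Clip libraries were above both no-enzyme libraries in 3798 regions and below both in 79, and the groups overlapped in 1087. The counts depended on single libraries: 484 were higher and 23 lower without no enzyme 1, and 4195 and 141 without no enzyme 2. Without Cap-Clip 2, 1856 were higher, and without Cap-Clip 1, 105 were lower.

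The highest folds are given here for called regions at a mean of 20 CPM or more, with 10 or more no-enzyme tags and no overlap between groups. NOP14, a component of the small-subunit processome (5' region chr4:190537-190986), had 212 and 214 CPM with Cap-Clip, against 16.3 CPM in no enzyme 1 and 12.4 CPM in no enzyme 2 (log2 fold change 3.77 ± 0.73 SE, edgeR adjusted p = 5.33e-05). The 12.4 CPM of no enzyme 2 is a single tag. YHM2, a mitochondrial carrier protein, had 166 and 192 CPM with Cap-Clip, against 14.9 CPM in no enzyme 1 and 12.4 CPM in no enzyme 2 (3.62 ± 0.73). SMB1, a core protein of the spliceosomal small nuclear ribonucleoproteins, had 147 and 172 CPM with Cap-Clip, against 10.9 CPM in no enzyme 1 and 24.8 CPM in no enzyme 2 (3.61 ± 0.72). In each of these genes every Cap-Clip value was several times every no-enzyme value. FCF2 and ERB1, which act in ribosomal RNA maturation, had log2 fold changes of 3.58 and 3.55, and UBC9, the SUMO-conjugating enzyme, had 3.53. ENP2, a nucleolar protein of the small-subunit pathway, had 3.50, REX4 had 3.47, and HOC1, a mannosyltransferase, and DMO2 had 3.45 each.

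The most abundant messenger RNAs were not called, and no enzyme 2 held them at levels similar to those of the Cap-Clip libraries. CCW12, a cell wall mannoprotein, had 19561 and 10378 CPM with Cap-Clip, against 2730 CPM in no enzyme 1 and 28518 CPM in no enzyme 2 (log2 fold change -0.06 ± 1.33 SE, not called). The Cap-Clip values lie between those of the no-enzyme libraries. RPL41B, which encodes a ribosomal protein, had 19097 and 10404 CPM with Cap-Clip, against 5443 CPM in no enzyme 1 and 18843 CPM in no enzyme 2 (0.28 ± 1.29). TDH3, a glyceraldehyde-3-phosphate dehydrogenase of glycolysis, had 7797 and 5188 CPM with Cap-Clip, against 1274 CPM in no enzyme 1 and 9911 CPM in no enzyme 2 (0.22 ± 1.18). The sign of these folds rested on single libraries. Without no enzyme 2, all of them were called higher, at 2.45 for CCW12, 1.44 for RPL41B and 2.35 for TDH3, and without no enzyme 1 they were -0.93, -0.35 and -0.61, the first of which was called. Without Cap-Clip 1, RPL41B was at -0.22 and TDH3 at -0.11, and without Cap-Clip 2 CCW12 was at 0.33. TMM scaling and DESeq2 put CCW12 at 1.01 and 0.97, and a replicate block at 0.47. RPL41B and its copy RPL41A, and TDH3 and its paralogs, are near-identical in sequence, so their counts are less certain.

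**Figure D3:**
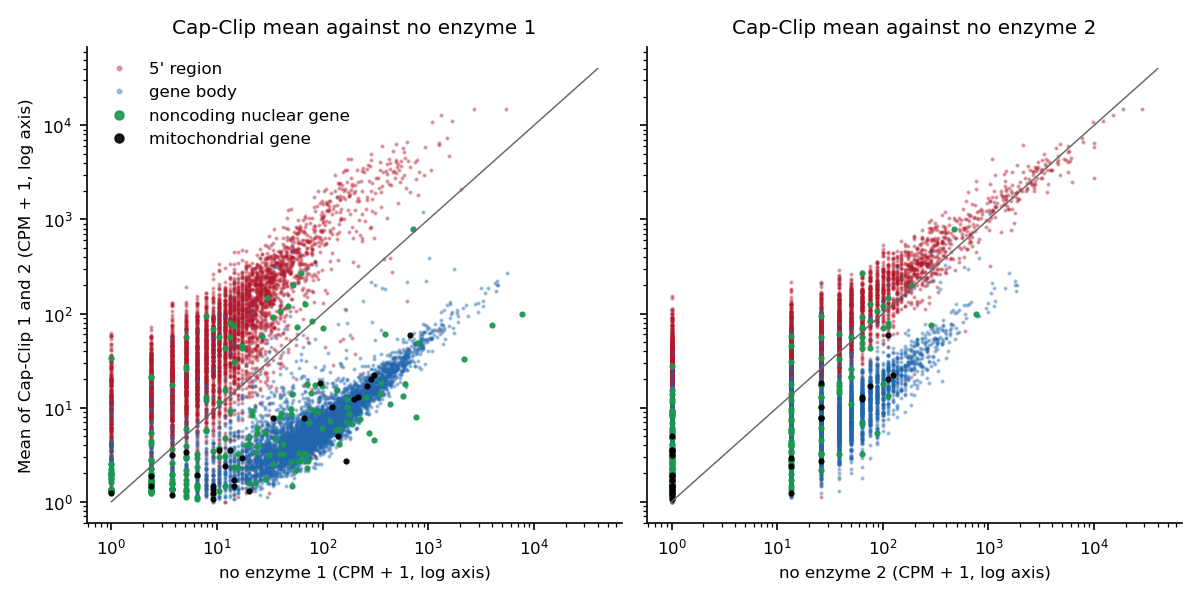
Mean of the Cap-Clip libraries for each 5' region, gene body, noncoding nuclear gene and mitochondrial gene against its value in no enzyme 1 and in no enzyme 2 (CPM + 1, log axes), with the line of equal values. Bodies lie towards the no-enzyme side, with a median log2 fold change of -3.77, and 5' regions towards the Cap-Clip side, with a median of 1.98.

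Among genes of ribosome biogenesis, 29 of 39 tested 5' regions were higher and 10 did not pass, with a median log2 fold change of 2.16 beside 1.98 over all regions, of which 64.0% were higher. Among proteasome subunits, 23 of 33 were higher and 10 did not pass (median 2.08), and among nuclear genes of respiration 26 of 36 were higher and 2 lower (median 1.75), shares near that of all regions. PRE2, a catalytic subunit of the proteasome, had 547 and 675 CPM with Cap-Clip, against 93.7 CPM in no enzyme 1 and 198 CPM in no enzyme 2 (2.15 ± 0.82, edgeR adjusted p = 0.0194). NHP2, a protein of the pseudouridylation particles, had 935 and 1301 CPM with Cap-Clip, against 102 CPM in no enzyme 1 and 359 CPM in no enzyme 2 (2.36 ± 0.94, adjusted p = 0.0246). Without Cap-Clip 1 or 2, neither passed, with values of 2.28 and 1.97 for PRE2 and 2.56 and 2.08 for NHP2. The abundant groups had lower medians and fewer calls. Of 138 ribosomal protein genes 11 were higher and 9 lower (median 1.02), beside 64.0% higher and 1.31% lower over all tested regions. Of 29 translation factors 10 were higher (1.57), of 23 cell wall genes 4 (1.22), of 17 glycolytic and fermentation genes 1 (0.98), and of 10 histone genes 1 (1.07). The remaining members of these groups did not pass. Summed over the ribosomal protein genes, the 5' regions held 340960 and 292290 CPM with Cap-Clip, against 46746 CPM in no enzyme 1 and 307528 CPM in no enzyme 2.

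Of the 65 regions that were lower with Cap-Clip, 45 had the fullest Cap-Clip position outside the counted region, when positions down to 1000 nt upstream of the start codon were searched. In 22 the counted region was narrower than 450 nt, because an upstream gene ended it. The same shares over all tested regions are not given, so whether these are unusual cannot be told. The search ran past neighbouring genes, and the positions found for SER3 and NVJ2 are ends of SRG1 and SNR41. Some positions held few tags, as for AAD3 with 0.788 and 0.118 CPM with Cap-Clip. RPS29B, a ribosomal protein (5' region chr4:340749-341198), had 13.4 and 18.6 CPM with Cap-Clip, against 232 CPM in no enzyme 1 and 124 CPM in no enzyme 2 (-3.54 ± 0.51, edgeR adjusted p = 7.56e-07). Its start site printed above lies 453 nt upstream of the start codon and had 574 and 440 CPM with Cap-Clip, against 16.3 CPM in no enzyme 1 and 644 CPM in no enzyme 2. RPS29A was lower in its region by a similar amount (-3.51), and its fullest Cap-Clip position lies 530 nt upstream, with 374 and 310 CPM with Cap-Clip, against 24.4 CPM in no enzyme 1 and 434 CPM in no enzyme 2. Both genes thus had few Cap-Clip tags in the counted region and many beyond it.

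GCN4, the transcription factor of amino acid starvation, whose leader carries upstream open reading frames, had 21.3 and 22.4 CPM in its 5' region with Cap-Clip, against 296 CPM in no enzyme 1 and 198 CPM in no enzyme 2 (-3.54 ± 0.58). Its start site, 571 nt upstream, had 174 and 192 CPM with Cap-Clip, against 5.43 CPM in no enzyme 1 and 173 CPM in no enzyme 2. RPL24A had 5.52 and 9.68 CPM in its region with Cap-Clip, against 155 CPM in no enzyme 1 and 37.2 CPM in no enzyme 2 (-3.84), with a start site 504 nt upstream. RPS26A had 66.2 and 62.3 CPM with Cap-Clip, against 1232 CPM in no enzyme 1 and 595 CPM in no enzyme 2 (-3.85), in a region of 285 nt that an upstream gene ended. Among the 15 tested genes known for upstream open reading frames, 9 regions were higher and 2 lower, with a median of 1.76, beside 64.0% higher and 1.31% lower over all tested regions. Several of these calls depended on a setting. Without no enzyme 1 RPL24A was at -2.08 and MTC7, at -4.09 in all libraries, was at -1.57, and neither passed, while RPS26A was at -2.14 under TMM scaling and did not pass. RPS8A, at -3.45, was at -0.92 and did not pass when its region was not ended at the upstream gene. NUP188, a nucleoporin at -3.16, reversed to 1.50 with 200 nt upstream in place of 400.

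Gene bodies were lower with Cap-Clip almost throughout. Of 4312 tested bodies, 4161 were lower, which is 96.5%, and 24 were higher, which is 0.557%, with a median log2 fold change of -3.77. With TMM 124 were higher and the median was -1.86, and with DESeq2 85 were higher and the median was -1.93. Leaving out no enzyme 1 left 1333 lower and 1 higher. Without no enzyme 2, 5061 were lower and 37 higher, and without Cap-Clip 2, 11 were higher. PPM2, an enzyme of tRNA modification (body chr15:56502-58539), had 1.58 and 0.708 CPM with Cap-Clip, against 66.6 CPM in no enzyme 1 and 24.8 CPM in no enzyme 2 (-6.08 ± 0.57 SE, edgeR adjusted p = 9.72e-08). MCM10, a replication factor, had 0.788 and 1.42 CPM with Cap-Clip, against 72.0 CPM in no enzyme 1 and 24.8 CPM in no enzyme 2 (-5.55 ± 0.53). ACM1, an inhibitor of the anaphase-promoting complex, was at -5.37 and LAC1, a ceramide synthase, at -5.14. The Cap-Clip values of all of these were below 5 CPM.

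The bodies with most no-enzyme tags belonged to abundant messenger RNAs. CDC19, pyruvate kinase, had 151 and 249 CPM in its body with Cap-Clip, against 4603 CPM in no enzyme 1 and 1846 CPM in no enzyme 2 (-4.01 ± 1.00, edgeR adjusted p = 0.000853). YEF3, a translation elongation factor, had 230 and 305 CPM with Cap-Clip, against 5606 CPM in no enzyme 1 and 1549 CPM in no enzyme 2 (-3.74), and PDC1, pyruvate decarboxylase, had 150 and 199 CPM, against 4325 and 1809 CPM (-4.14). TMM scaling left these at -2.30, -1.91 and -2.42, none of which passed, and YEF3 did not pass without Cap-Clip 1 (-3.55). In the gene lists, 133 of 137 tested ribosomal protein bodies and 27 of 28 translation factor bodies were lower. So were all tested bodies of the lists for glycolysis (18), proteasome (33), ribosome biogenesis (38), cell wall (22), respiration (29) and histones (10). Over all tested bodies 96.5% were lower, so the shares of the lists are near that of all bodies and do not set the lists apart. Across 5121 genes, the Cap-Clip level of the 5' region rank-correlated with the tags per kb of the body at a Spearman rho of 0.839 in no enzyme 1 and 0.617 in no enzyme 2. With the 5' region of the same no-enzyme library the rho was 0.744 and 0.819. Genes are not independent replicates, and these values are descriptions. All bodies together held 579570 tags in no enzyme 1 but 19128 in no enzyme 2, so the rho values of the no-enzyme libraries do not compare at equal depth.

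Among the 24 bodies that were higher with Cap-Clip, the fullest Cap-Clip position lay within 100 nt after the start codon in 7 and within 200 nt in 14. The same shares over other bodies are not given, and some of these coding regions are short. YBL071C-B, of 99 nt, had its fullest position at 84 nt. Its values in all 4 libraries are those of the position found 347 nt upstream of RPS8A. EMI1 had 196 and 224 CPM in its body with Cap-Clip, against 53.0 CPM in no enzyme 1 and 24.8 CPM in no enzyme 2 (2.22 ± 0.67, edgeR adjusted p = 0.00472), and its fullest position, 269 nt after the start codon, held 48.1 and 53.1 CPM with Cap-Clip, against 2.72 CPM in no enzyme 1 and 0 tags in no enzyme 2. BOL2, a protein of iron regulation, had 247 and 360 CPM with Cap-Clip, against 72.0 CPM in no enzyme 1 and 136 CPM in no enzyme 2 (1.66 ± 0.74, adjusted p = 0.0424), with its fullest position 73 nt after the start codon. BOL2 passed neither with any of Cap-Clip 1, Cap-Clip 2 or no enzyme 1 left out (1.87, 1.33 and 1.17) nor with a replicate block (1.64). YGR025W, at 2.08 in all libraries, was at 0.28 without no enzyme 1 and did not pass.

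Tags of no enzyme 1 were spread over many positions, and within bodies some positions held many. Positions with a single tag held 7.83% and 4.85% of all tags with Cap-Clip, against 57.5% in no enzyme 1 and 36.5% in no enzyme 2, in libraries of different depth. Over bodies of at least 500 nt, the first of 10 equal parts held 14.8% and 13.4% of the body tags with Cap-Clip, against 6.55% in no enzyme 1 and 8.59% in no enzyme 2. The ninth part held 12.4% and 12.7% with Cap-Clip, against 13.7% and 12.4% without enzyme.

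RPL15A, a ribosomal protein, had its fullest body position 340 nt after the start codon, at chr12:202250, with 36.3 and 39.4 CPM with Cap-Clip, against 1064 CPM in no enzyme 1 and 322 CPM in no enzyme 2 (-4.21 ± 1.43, edgeR adjusted p = 0.0124 over single positions). HCR1, a translation initiation factor, had 20.5 and 28.1 CPM with Cap-Clip at chr12:539045, against 793 CPM in no enzyme 1 and 161 CPM in no enzyme 2 (-4.32 ± 1.32, adjusted p = 0.00723). RPO26, a subunit shared by the nuclear RNA polymerases, had 23.6 and 29.3 CPM with Cap-Clip at chr16:911371, against 644 CPM in no enzyme 1 and 112 CPM in no enzyme 2 (-3.88 ± 1.19). All Cap-Clip values at these sites were below both no-enzyme values. KRS1, the lysyl-tRNA synthetase, was at -3.64 and RPS3 at -3.16 at the positions printed above. These calls were lost when either Cap-Clip library was left out, at -4.15 and -4.27 for RPL15A, -4.11 and -4.56 for HCR1, -3.72 and -4.03 for RPO26, -3.23 and -4.09 for KRS1 and -3.04 and -3.21 for RPS3, and without no enzyme 1 RPO26 was at -2.03 and RPS3 at -1.45 and did not pass. RPS3 did not pass with a replicate block either (-2.87).

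Among the 200 fullest body positions of Cap-Clip 2, 63.0% had A at +1 and 44.5% had C at -1. Among those of no enzyme 1, 52.0% had G at -2, beside 24.7% of all its body tags, and 56.0% had A at -1, beside 37.3%. These are descriptions of positions chosen by their own counts.

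Only positions with at least 20 tags over all 8 libraries entered this test. Most of these libraries were decapped, so the test favoured positions that are full after decapping. The shares called describe the positions that entered and not all counted 5' ends. Of 23332 single positions tested, 14711 were higher with Cap-Clip (63.1%) and 1925 lower (8.25%). This split turned with the scaling, to 976 higher and 2329 lower with TMM and 366 higher and 2815 lower with DESeq2. In 5' regions 14268 of 21495 positions were higher and 895 lower, and in bodies 177 of 1251 were higher and 915 lower. The start site of RPS18B, a ribosomal protein, had 370 and 278 CPM with Cap-Clip, against 9.51 CPM in no enzyme 1 and 37.2 CPM in no enzyme 2 (4.20 ± 1.59, edgeR adjusted p = 0.0207). That of MAP2, a methionine aminopeptidase, had 290 and 338 CPM with Cap-Clip, against 9.51 CPM in no enzyme 1 and 37.2 CPM in no enzyme 2 (4.15 ± 1.59, adjusted p = 0.0222). Without Cap-Clip 1 or 2 these were at 3.91 and 4.31 for RPS18B and 4.18 and 3.96 for MAP2, and did not pass. The lowest position by the same rule as the highest lay 139 nt into the coding region of RPP1A, a protein of the ribosomal stalk, at chr4:309983, with 0 and 0.118 CPM with Cap-Clip, against 46.2 CPM in no enzyme 1 and 37.2 CPM in no enzyme 2. A position 18 nt upstream of EFT2, elongation factor 2, at chr4:1243212, had 0 and 0.236 CPM with Cap-Clip, against 36.7 CPM in no enzyme 1 and 49.6 CPM in no enzyme 2. The counts of positions hung on the control: without no enzyme 1, 123 were higher and 477 lower, and without no enzyme 2, 19900 and 4197. Without Cap-Clip 2, 8795 were higher, and without Cap-Clip 1, 3700 were lower.

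Noncoding RNAs differed among each other in direction. In yeast, small nuclear RNAs and some small nucleolar RNAs keep a trimethylated cap, while small nucleolar RNAs that are cut from a longer precursor or from an intron have processed 5' ends. Of 102 noncoding nuclear genes tested, 60 were lower with Cap-Clip, which is 58.8%, and 11 were higher, which is 10.8%, with a median log2 fold change of -2.28. With TMM scaling the split was 35 higher and 38 lower and with DESeq2 26 and 31, as those scalings move the median of all 9600 features to 1.96 and 1.70, beside 0.25 with library totals. There were 9 lower and 1 higher without no enzyme 1, and 25 higher without no enzyme 2. Without Cap-Clip 1, 6 were higher and without Cap-Clip 2, 4. Reads of these RNAs come only from molecules that passed poly(A) selection.

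All 13 tested small nucleolar RNAs in clusters, those with another such gene within 300 nt on the same strand, were lower (median -4.28), as were all 5 that lie inside a protein-coding gene (median -4.73). The 43 that stand alone were divided, with 10 higher, 21 lower and 12 not passing (median 0.50). Grouping by arrangement was chosen after the values were seen. Summed over genes, the clusters had 288 and 282 CPM with Cap-Clip, against 15558 CPM in no enzyme 1 and 1326 CPM in no enzyme 2. Most of this was SNR190 and SNR128, with 7699 and 3966 CPM in no enzyme 1 and 756 and 285 CPM in no enzyme 2. In tags, the clusters had 11454 in no enzyme 1 but 107 in no enzyme 2, and the genes inside protein-coding genes had 970 and 12. The calls of these genes thus rested largely on no enzyme 1. SNR57 and SNR74 had 0 tags in no enzyme 2 and overlapped between groups. Single genes summed to 1649 and 1585 CPM with Cap-Clip, against 5327 CPM in no enzyme 1 and 1734 CPM in no enzyme 2. In every arrangement most tags lay within 2 nt of the annotated 5' end: 95.9% and 95.6% with Cap-Clip, against 98.8% and 97.2% without enzyme in clusters, and 79.1% and 80.1% with Cap-Clip, against 83.5% and 65.0% without enzyme in single genes.

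The bases at the annotated ends were counted in the same groups. The pyrimidine-purine step was present at all 10 single genes that were higher, at 7 of the 21 that were lower and at 5 of the 13 cluster genes. Over all noncoding tags the step was found in 84.5% and 83.1% with Cap-Clip, against 24.6% in no enzyme 1 and 51.6% in no enzyme 2. The first base was T in 7.94% and 8.06% with Cap-Clip, against 48.7% in no enzyme 1 and 27.2% in no enzyme 2.

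SNR190 and SNR128 (U14), box C/D RNAs from one precursor, were the fullest of the clusters. SNR190 (chr10:139761-140000 with 50 nt upstream) had 117 and 80.5 CPM with Cap-Clip, against 7699 CPM in no enzyme 1 and 756 CPM in no enzyme 2 (-5.43 ± 1.19 SE, edgeR adjusted p = 0.000226). SNR128 had 72.5 and 76.2 CPM with Cap-Clip, against 3966 CPM in no enzyme 1 and 285 CPM in no enzyme 2 (-4.85 ± 1.07). The end of SNR190 printed above, 1 nt before the annotated start, was the fullest position of no enzyme 1, at 48.9 and 34.7 CPM with Cap-Clip, against 3337 CPM in no enzyme 1 and 285 CPM in no enzyme 2 (-5.45 ± 1.73, adjusted p = 0.00868). Both Cap-Clip values were below both no-enzyme values in all of these. The position call did not pass without Cap-Clip 1 (-5.71) or Cap-Clip 2 (-5.22). SNR41 had 27.6 and 36.8 CPM with Cap-Clip, against 2157 CPM in no enzyme 1 but 37.2 CPM in no enzyme 2 (-5.11), and without no enzyme 1 it was at -0.14 and did not pass. At the start position of SNR41, the value of -5.17 reversed to 0.014 without no enzyme 1.

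SNR24, which lies in the intron of ASC1, had 4.73 and 2.36 CPM with Cap-Clip, against 304 CPM in no enzyme 1 and 24.8 CPM in no enzyme 2 (-6.15 ± 0.69), and SNR44, in an intron of RPS22B, was at -4.87. Neither passed without no enzyme 1 (-3.15 and -2.40). RPR1, the RNA of RNase P, had 2.36 and 2.12 CPM with Cap-Clip, against 40.7 CPM in no enzyme 1 and 37.2 CPM in no enzyme 2 (-4.19 ± 0.51, edgeR adjusted p = 1.14e-07). Of 20 nuclear tRNA genes tested 12 were lower and 8 did not pass, a share near the 58.8% of all tested noncoding genes, and all 5 annotated antisense RNAs tested were lower.

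LSR1 (chr2:680688-681912 with 50 nt upstream) had 244 and 300 CPM with Cap-Clip, against 61.1 CPM in no enzyme 1 and 61.9 CPM in no enzyme 2 (2.15 ± 0.68, edgeR adjusted p = 0.00649). At its first base, chr2:681862, it had 221 and 267 CPM with Cap-Clip, against 8.15 CPM in no enzyme 1 and 61.9 CPM in no enzyme 2 (3.25 ± 1.52, adjusted p = 0.0540, not called), so most of the no-enzyme 1 tags of this gene lay elsewhere in it. The gene did not pass without Cap-Clip 2 (1.99). Over 5 of the small nuclear RNA genes, 93.7% and 92.3% of tags lay within 2 nt of the annotated end with Cap-Clip, against 18.4% in no enzyme 1 and 96.0% in no enzyme 2, where there were 25 tags. Summed over the 6 annotated genes, small nuclear RNAs had 489 and 547 CPM with Cap-Clip, against 120 CPM in no enzyme 1 and 359 CPM in no enzyme 2. These sums count the same tags again for SNR7-L and SNR7-S, whose annotated spans overlap. Each had 16.6 and 24.2 CPM with Cap-Clip, against 1.36 CPM in no enzyme 1 and 49.6 CPM in no enzyme 2. SNR19 (U1) had 208 and 195 CPM with Cap-Clip, against 51.6 CPM in no enzyme 1 and 186 CPM in no enzyme 2 (0.99 ± 0.71) and was not called, although it passed without no enzyme 2 (1.96) and with DESeq2 (2.08). SNR6 (U6), which RNA polymerase III makes without this kind of cap, had 0 and 0.708 CPM with Cap-Clip, against 2.72 CPM in no enzyme 1 and 12.4 CPM in no enzyme 2, which is 2 tags and 1 tag (-2.55 ± 1.11, adjusted p = 0.0378).

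SNR5, a box H/ACA RNA that guides pseudouridylation, had 90.6 and 93.8 CPM with Cap-Clip, against 6.79 CPM in no enzyme 1 and 24.8 CPM in no enzyme 2, which together are 7 tags (3.33 ± 0.69, edgeR adjusted p = 0.000107). Without no enzyme 1 it was at 1.90 and did not pass. SNR30, needed for ribosomal RNA processing, was at 1.48. It did not pass without Cap-Clip 1 (1.56), Cap-Clip 2 (1.39) or no enzyme 1 (1.84). SCR1, made by RNA polymerase III for the signal recognition particle, was high in every library, with 844 and 719 CPM with Cap-Clip, against 716 CPM in no enzyme 1 and 471 CPM in no enzyme 2 (0.39 ± 0.81, not called). It was at -0.058 when positions with 1 tag were left out, at 2.01 with TMM, where it was not called, and at 1.92 with DESeq2, where it was called. TLC1, the telomerase RNA, had 59.1 and 77.8 CPM with Cap-Clip, against 99.2 CPM in no enzyme 1 and 99.1 CPM in no enzyme 2 (-0.52 ± 0.47, not called), and reversed to 1.53 with TMM scaling and 1.10 with DESeq2. NME1, the RNA of RNase MRP, was at 1.69 ± 0.83, was not called, and was at -0.55 without no enzyme 1 and at 2.62 without no enzyme 2, where it was called. It was also called with TMM (3.81), DESeq2 (3.28) and the 4 libraries alone (1.75).

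**Figure D4:**
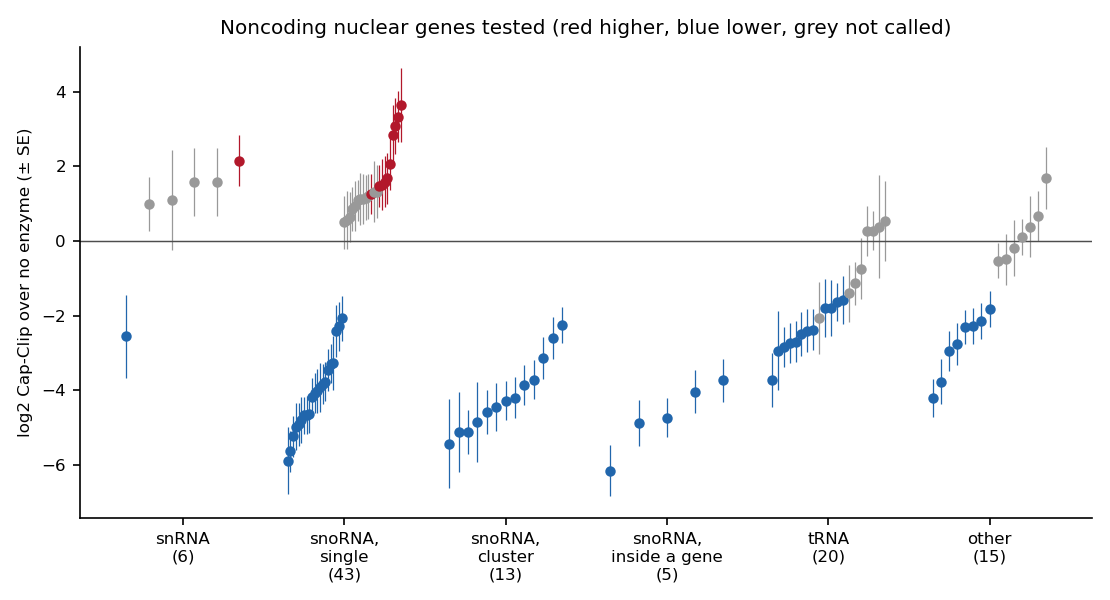
Log2 fold change of Cap-Clip over no enzyme, with its SE, for the 102 tested noncoding nuclear genes, ordered within each kind (numbers of genes in brackets). All 13 cluster genes and all 5 genes inside coding genes lie below 0, and the 43 single small nucleolar RNAs lie on both sides of it.

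Mitochondrial RNAs were lower with Cap-Clip over their gene spans, but the ends at the promoter of the large ribosomal RNA were not. Mitochondria have their own RNA polymerase, which starts at a short promoter sequence, and their tRNAs are cut out of long transcripts by RNase P. Of 46 mitochondrial features 16 were tested, and all 16 were lower (100% of those tested, with 0.00% higher), with a median log2 fold change of -3.41. The intron reading frames of COX1 share most of its span and tags, so these features are not separate. DESeq2 called 8 of them, and 6 were called without no enzyme 1. Beneath these counts lay 489 and 2979 mitochondrial tags with Cap-Clip, against 1263 in no enzyme 1 and 38 in no enzyme 2.

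COX1, a subunit of cytochrome oxidase, had 21.3 and 21.003 CPM with Cap-Clip, against 307 CPM in no enzyme 1 and 124 CPM in no enzyme 2 (-3.50 ± 0.48, edgeR adjusted p = 3.45e-07). The tRNA gene tV(UAC)Q had 2.36 and 1.06 CPM with Cap-Clip, against 166 CPM in no enzyme 1 and 24.8 CPM in no enzyme 2 (-6.55 ± 0.69). Nearly all of its tags lay at the first base of the tRNA, chr17:78533, with 2.36 and 0.944 CPM with Cap-Clip, against 159 CPM in no enzyme 1 and 24.8 CPM in no enzyme 2 (-6.74 ± 0.61), a call that did not pass without no enzyme 1 (-4.37). Over the 24 mitochondrial tRNA genes, 90.7% and 91.3% of tags lay within 2 nt of the annotated end with Cap-Clip, against 96.9% in no enzyme 1 and 100% of 9 tags in no enzyme 2. The smallest tRNA differences were those of tE(UUC)Q and tD(GUC)Q, at -2.15 each, and neither passed with TMM scaling (-0.25 and -0.10), with DESeq2 (-0.27 and -0.32) or without no enzyme 1 (-0.53 and -1.80).

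21S_RRNA had 45.7 and 71.5 CPM over its span with Cap-Clip, against 667 CPM in no enzyme 1 and 112 CPM in no enzyme 2 (-2.81 ± 0.67). At chr17:58008, 1 nt before the annotated start, it had 231 and 172 CPM with Cap-Clip, against 40.7 CPM in no enzyme 1 and 74.3 CPM in no enzyme 2. This position was higher in both Cap-Clip libraries than in both no-enzyme libraries, but the difference was not called (1.93 ± 1.14, edgeR adjusted p = 0.122), reversed to -0.37 with DESeq2 and was called without no enzyme 2 (2.29). With 50 nt upstream added to each gene, an alternative chosen after these values were seen, 21S_RRNA was at -0.84 and did not pass, nor did it without no enzyme 1 (-0.86) or with DESeq2 (-1.001). The end 76 nt upstream of 15S_RRNA, at chr17:6470, had 25.2 and 18.3 CPM with Cap-Clip, against 8.15 CPM in no enzyme 1 and 12.4 CPM in no enzyme 2 (1.25 ± 0.68, not called), while its span was at -3.04, which did not pass without no enzyme 1 (-1.83) or with DESeq2 (-1.18).

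Both of these ends lie at the last base of ATATAAGTA, the known promoter sequence of yeast mitochondria, which was searched on both strands of the mitochondrial genome without mismatches and after the values were seen. The genome holds 14 copies, and 7 had at least 1 Cap-Clip tag at the last base. These bases are 0.00816% of all mitochondrial positions and strands. They held 67.7% of mitochondrial tags in Cap-Clip 1 (95% Wilson interval 63.4 to 71.7) and 55.6% in Cap-Clip 2 (53.8 to 57.4), against 3.80% in no enzyme 1 (2.88 to 5.00) and 18.4% in no enzyme 2 (9.22 to 33.4). Both Cap-Clip shares exceeded both no-enzyme shares (exact two-sided permutation p = 0.33, the smallest possible), and most of these tags were those of 21S_RRNA.

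**Figure D5:**
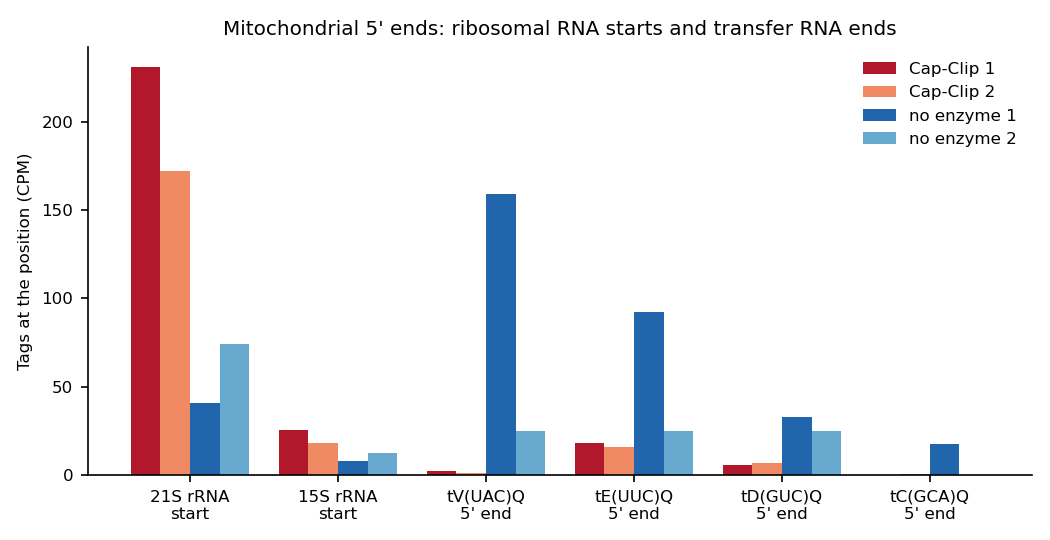
Tags at mitochondrial 5' ends (CPM, linear axis from 0, bars) in each of the 4 libraries. The end before 21S_RRNA is higher with Cap-Clip, at 231 and 172 CPM, and that of tV(UAC)Q is lower, at 2.36 and 0.944 CPM with Cap-Clip, against 159 CPM in no enzyme 1 and 24.8 CPM in no enzyme 2.

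Tags opposite coding regions were few, and 206 of the antisense spans had enough to be tested. Of these, 102 were lower with Cap-Clip (49.5%) and 6 were higher (2.91%), with a median log2 fold change of -1.37. This split turned with the scaling, to 41 lower and 81 higher with TMM and 18 lower and 41 higher with DESeq2, so a direction for antisense tags as a whole cannot be given apart from the scaling. Without no enzyme 1, 13 were lower, and without no enzyme 2, 281 were lower and 15 higher. Without Cap-Clip 1, 244 were lower, and without Cap-Clip 2, 188 were lower and 3 higher. Both Cap-Clip libraries lay below both no-enzyme libraries in 111 spans and above both in 26.

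The strand opposite FRE5, a putative ferric reductase (chr15:1061564-1063648), had 1.58 and 1.65 CPM with Cap-Clip, against 57.0 CPM in no enzyme 1 and 61.9 CPM in no enzyme 2 (-5.11 ± 0.49, edgeR adjusted p = 9.72e-08). That opposite CTA1, catalase A (chr4:968133-969680), had 1.58 and 2.12 CPM with Cap-Clip, against 63.8 CPM in no enzyme 1 and 37.2 CPM in no enzyme 2 (-4.84 ± 0.48). Opposite HPF1 the value was -3.96 and opposite CSS1 -3.93, in genes that share serine- and threonine-rich repeats, so the place of their tags is less certain. PRY3, at -1.72, was at 0.32 with TMM scaling and 0.053 with DESeq2, and did not pass without no enzyme 1 (-1.14). The strand opposite NRG2, a glucose-responsive repressor, was higher, with 34.7 and 31.7 CPM with Cap-Clip, against 2.72 CPM in no enzyme 1 and 12.4 CPM in no enzyme 2, or 3 tags in all (3.11 ± 0.82), but not without no enzyme 1 (1.40). In antisense tags as a class, the pyrimidine-purine step was found in 81.9% and 80.9% with Cap-Clip, against 26.3% in no enzyme 1 and 47.4% in no enzyme 2.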

How the data were processed

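The authors deposited counts of 5' ends, unnormalized whole numbers in 8 columns for 1643818 positions and strands. Per the submitters' processing notes, reads were aligned to R64 (sacCer3) with Novoalign. Its version, and any removal of duplicate barcodes, are not given in the sources used here, so intervals cover counting error only. Positions were read as 1-based, since the pyrimidine-purine step peaks at that offset.

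From these counts, tags were summed per gene of the R64 RefSeq annotation. Noncoding nuclear genes included 50 nt upstream, mitochondrial genes their span alone, and antisense spans the opposite strand of coding regions without annotated features. The test was edgeR 4.0.16 (glmQLFit and glmQLFTest, R 4.3.3) over all 8 libraries, scaled to column totals without TMM, after filterByExpr, with Benjamini-Hochberg adjustment over the 9600 features tested of 18351. Single positions with at least 20 tags over all libraries were fitted apart. The TAP and Decapping Pyrophosphohydrolase libraries served the estimate of spread and the filters on low counts, and so took part in deciding what was tested. With the 4 libraries alone, 8572 features and 11958 positions were tested. A SE was worked back from the test, as the absolute log2 fold change divided by the square root of the F statistic.

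Replicates 1 and 2 are 2 cultures, per the labels, and same-numbered libraries are aliquots of one culture. Over 9600 features, the difference between replicates 1 and 2 correlated between groups at -0.0940, and the block is an alternative. Between replicates, chi-square divided by its degrees of freedom was 11.2 for Cap-Clip (5126 regions) and 13.3 for no enzyme (1241), above counting error. These values grow with tag counts and cover different regions, so they do not compare the spread of the groups. The members and lists were chosen with earlier results of these data known. Genes named are the 10 highest and 10 lowest of each kind by log2 fold change, if called, at a mean of 20 CPM or more, with 10 or more no-enzyme tags and no overlap between groups. To these come the most abundant features, the 3 fullest members of each list, the small nuclear and other structural RNAs, mitochondrial genes and deleted genes, and for single positions the 5 highest, 5 lowest and 5 fullest. Alternatives were TMM, DESeq2 1.42.0, no filter, the 4 libraries alone, the block, each library left out, positions with at least 2 tags, 200 nt upstream, regions not ended at an upstream gene and, added after seeing the data, 50 nt upstream of mitochondrial genes. Body positions, distant start sites and ends in noncoding, mitochondrial and unannotated sequence were picked for naming once their values had been seen.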

Additional observations from a re-analysis of the deposited data

How the results depend on the processing

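The differences between Cap-Clip and no enzyme in the shares of tags in 5' regions and in gene bodies, and of the pyrimidine-purine step in each, kept their direction in the alternatives run on them, namely each library left out, positions with at least 2 tags, each position counted once and, for the share in 5' regions, 200 nt upstream. Counts of calls moved with the scaling, the set of libraries and the low-count filter, and the cause was not tested. With TMM the counts were 25 lower 5' regions, 124 higher bodies, 35 higher and 38 lower noncoding genes, 81 higher and 41 lower antisense spans and 976 higher positions. With DESeq2 they were 12 lower 5' regions, 85 higher bodies, 26 higher and 31 lower noncoding genes, 8 lower mitochondrial genes, 41 higher and 18 lower antisense spans and 366 higher positions. The split of calls at positions turned from 14711 higher and 1925 lower to 976 and 2329 with TMM and 366 and 2815 with DESeq2. With the 4 libraries alone there were 1758 higher 5' regions, 12 higher bodies, 7 higher noncoding genes, 3 higher antisense spans and 6894 higher and 928 lower positions. Without the filter, 157 5' regions, 91 noncoding genes, 27 mitochondrial genes and 589 antisense spans were lower. With positions of at least 2 tags, 39 5' regions and 32 antisense spans were lower and 7 noncoding genes higher. Regions not ended at an upstream gene gave 130 lower. With one library left out, ranges were 484 to 4195 higher and 23 to 141 lower 5' regions, 1 to 37 higher and 1333 to 5061 lower bodies, 1 to 25 higher and 9 to 80 lower noncoding genes, 6 to 22 lower mitochondrial genes, 0 to 15 higher and 13 to 281 lower antisense spans, and 123 to 19900 higher and 477 to 4197 lower positions. The replicate block gave 2883 higher and 55 lower 5' regions, 20 and 4134 bodies, 9 and 56 noncoding genes, 6 and 97 antisense spans and 13556 and 1891 positions, and moved no count by over 1.5 times. Of 78 called features named, the block lost 8, TMM 8, DESeq2 4, the 4 libraries alone 22 and leaving out no enzyme 1 33. Values that reversed are left out of these counts of lost calls, also where the feature had been called. They were CCW12 (TMM 1.01, DESeq2 0.97, block 0.47, without Cap-Clip 2 0.33, leaving out one library -0.93 to 2.45), RPL41B (without Cap-Clip 1 -0.22, leaving out one library -0.35 to 1.44), TDH3 (-0.11, -0.61 to 2.35), NUP188 (200 nt upstream 1.50), SCR1 (at least 2 tags -0.058), TLC1 (TMM 1.53, DESeq2 1.10), NME1 (leaving out one library -0.55 to 2.62), PRY3 (TMM 0.32, DESeq2 0.053) and the positions of SNR41 (leaving out one library -6.06 to 0.014) and 21S_RRNA (DESeq2 -0.37). The 80721 tags of no enzyme 2 limit what it can show: a gene with 0 tags there may lie anywhere up to 37.2 CPM.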

Other observations

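Some 5' ends lay outside the annotated classes, and the fullest of them in the Cap-Clip libraries were chosen after their values were seen. Besides the distant starts of ribosomal protein genes, a position at chr4:721533 on the minus strand had 526 and 722 CPM with Cap-Clip, against 28.5 CPM in no enzyme 1 and 644 CPM in no enzyme 2 (0.94 ± 1.50, edgeR adjusted p = 0.557). Within an annotated noncoding gene, a position 1 nt after the start of SRG1, a noncoding RNA transcribed over the promoter of the serine biosynthesis gene SER3, had 46.5 and 52.3 CPM with Cap-Clip, against 4.07 CPM in no enzyme 1 and 12.4 CPM in no enzyme 2 (3.32 ± 0.80, adjusted p = 0.00153). The no-enzyme values are 3 tags and 1 tag. SRG1 as a whole gene was not called, with 78.8 and 85.9 CPM with Cap-Clip, against 77.4 CPM in no enzyme 1 and 74.3 CPM in no enzyme 2 (0.11 ± 0.48, edgeR adjusted p = 0.835).

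Other ends were high without enzyme, some of them between small nucleolar RNA genes and some elsewhere. A position 57 nt upstream of SNR128 had 1.58 and 1.06 CPM with Cap-Clip, against 70.6 CPM in no enzyme 1 and 37.2 CPM in no enzyme 2 (-5.79 ± 0.51). A position 70 nt upstream of SNR77 had 1.58 and 1.42 CPM with Cap-Clip, against 95.1 CPM in no enzyme 1 and 12.4 CPM in no enzyme 2 (-5.75 ± 0.56). A position 530 nt upstream of FRD1 at chr5:67327 had 4.73 and 3.78 CPM with Cap-Clip, against 189 CPM in no enzyme 1 and 12.4 CPM in no enzyme 2 (-5.19 ± 0.55). After stop codons, the fullest no-enzyme 1 positions included one of NOP1, 1002 nt from its start codon, with 3.94 and 3.89 CPM with Cap-Clip, against 55.7 CPM in no enzyme 1 and 37.2 CPM in no enzyme 2 (-3.74 ± 0.46).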
